A study of Mus musculus with 9 samples.

Results

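Retinoic acid (RA) genes were followed through the stages at which the prominences of the mouse upper lip and primary palate meet and fuse. The 10 genes were taken by symbol from the 54532 genes of the deposited table, and each symbol matched 1 row. They are the synthesis genes Aldh1a1, Aldh1a2 and Aldh1a3, the breakdown genes Cyp26a1, Cyp26b1 and Cyp26c1, the receptors Rarb and Rarg, and the carriers Crabp1 and Crabp2. The RNA sequenced came from the lambdoidal junction, where the maxillary prominence joins the medial and lateral nasal ones, of C57BL/6J embryos on embryonic day 10.5 (E10.5), on day 11.5 and on day 12.5, with no treatment or mutation. There were 3 libraries per stage and 9 in all, each from pooled embryos, so the spread between libraries of a stage is that between pools and single embryos cannot be seen. Depth was 16581009–20836804 counts per library.

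RA is a small lipid signal made from vitamin A. Retinol is oxidized to retinaldehyde, and the retinaldehyde dehydrogenases ALDH1A1, ALDH1A2 and ALDH1A3 oxidize retinaldehyde to RA. CYP26 enzymes hydroxylate RA and so clear it from cells, CRABP proteins bind it in the cytoplasm, and RAR receptors, paired with RXR receptors, bind DNA at direct repeats and switch target genes when RA is bound. In the embryonic face, regions of synthesis and of breakdown lie close together, and both a lack and an excess of RA can cause clefts.

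The promoters of 2 members held a direct repeat of the kind that RAR and RXR bind, and they are shown so that their letters can be read beside the levels of these genes. RefSeq promoters on GRCm38.p6 were matched for 8 of the 10 genes (10 promoters). The 250 bases before each transcript start were searched, on both strands, for a direct repeat of a 6-base half-site with a spacer of 1, 2 or 5 bases. The half-site could read AGGTCA, it could differ inside (AGTTCA was also allowed) or in its first base (GGGTCA was also allowed), or in both places (GGTTCA was also allowed). Capitals mark the half-sites of the repeat. The window of Rarb is chr14:16575477-16575726 on the minus strand and lies just before a RefSeq transcript start inside the gene. The window of Cyp26a1 is chr19:37697558-37697807 on the plus strand. The window of Cyp26b1, the paralog of Cyp26a1 that moved in the other direction, is chr6:84593811-84594060 on the minus strand and held no such repeat and no single half-site. The same was true of the windows of Cyp26c1 and Crabp1, which also ended lower at E12.5 than at E10.5, and of Aldh1a2, which rose. Aldh1a1, which fell, and Rarg each had a window with 1 half-site and no repeat, and a further window with neither.
Rarb: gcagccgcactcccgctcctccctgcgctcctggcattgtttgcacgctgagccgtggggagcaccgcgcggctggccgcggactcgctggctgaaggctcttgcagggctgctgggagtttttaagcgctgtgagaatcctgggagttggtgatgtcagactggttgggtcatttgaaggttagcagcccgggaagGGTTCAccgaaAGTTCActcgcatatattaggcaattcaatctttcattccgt
Cyp26a1: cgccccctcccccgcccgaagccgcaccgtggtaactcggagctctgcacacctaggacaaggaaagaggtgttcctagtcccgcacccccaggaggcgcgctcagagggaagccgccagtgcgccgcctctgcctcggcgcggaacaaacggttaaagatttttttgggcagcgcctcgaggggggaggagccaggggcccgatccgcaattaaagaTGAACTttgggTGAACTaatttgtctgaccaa
Cyp26b1: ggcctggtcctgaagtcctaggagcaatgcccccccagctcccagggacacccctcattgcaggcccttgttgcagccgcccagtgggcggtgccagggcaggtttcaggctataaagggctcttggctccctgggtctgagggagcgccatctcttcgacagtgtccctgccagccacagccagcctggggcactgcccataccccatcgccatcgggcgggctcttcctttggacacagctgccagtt

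In Rarb the repeat lay on the strand of the gene at bases -53 to -37 from the transcript start. In Cyp26a1 it lay on the opposite strand at bases -32 to -16. Both had the spacer of 5 bases, a form that 29 of 32851 RefSeq promoters (0.0883%) held. Repeats with a spacer of 1 or 2 bases were in 0.164% and 0.174% of promoters and in none of the 10 member promoters searched, and a single half-site was in 38.6%. A match is a description of the letters and not of a bound site, and no match in the other windows says only that these letters are absent there.

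One library stood apart and bears on several members. E10.5 replicate 3 differed from the other 2 E10.5 libraries along gene GC content (Spearman's rho = -0.546 over 16363 genes, and genes are not independent of each other). The summed level of 10 facial mesenchyme markers was 1389 CPM (counts scaled to a common library size) in it and 2448 and 2502 CPM in replicates 1 and 2, and that of 8 endothelial markers was 125.8, 353.7 and 340.1 CPM. The sum of 10 surface and oral epithelium markers was 958.8 CPM in replicate 3, and 536.8 and 609.5 CPM in the others. Against the mean of the other 2 libraries on the log2 scale, Cyp26b1 was lower by 1.59 there, Aldh1a2 by 1.38, Rarg by 1.16 and Rarb by 0.83. Aldh1a3 was higher by 0.55 and Aldh1a1 by 1.15. For Aldh1a1, however, replicate 2 lay further out, lower by 1.91 than the mean of the other 2. The part of tissue makeup in the members' values was not tested.

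A gene was called a differentially expressed gene (DEG) where the adjusted p-value did not exceed 0.05 and the fold change was 1 or more on the log2 scale in either direction, from the quasi-likelihood test of edgeR, with p-values adjusted by Benjamini-Hochberg over all genes tested. Adjusted p-values below are from that test. In the first interval, E11.5 vs. E10.5, 5 of the 10 members were DEGs, 2 upregulated and 3 downregulated, while 3.46% of all 15708 genes tested were upregulated and 2.61% downregulated. Over the whole period, E12.5 vs. E10.5, there were 8 (2 upregulated, 6 downregulated), against 9.97% and 5.08% of 15899 genes. In the second interval, E12.5 vs. E11.5, there were 4 (2 upregulated, 2 downregulated), against 4.14% and 0.962% of 15808 genes. The median log2 fold change of the 10 members was -0.33 in the first interval, -1.20 over the whole period and -0.11 in the second interval, and that of all genes tested was -0.03, -0.01 and 0.02. The comparisons share libraries, so their counts are not independent. The members were also chosen with earlier results of these data known, which limits the comparison with all genes. Without E10.5 replicate 3 the same 5 members were DEGs in the first interval and the same 8 over the whole period.

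Tested over the 3 stages together on all 9 libraries, 8 members passed an adjusted p-value of 0.05, as did 28.3% of 16375 genes. The exceptions were Rarg (adjusted p = 0.0601) and Crabp2 (adjusted p = 0.271). By CPM scaled within the 6 libraries of a pair, the stages did not overlap for 7 members in the first interval, 9 over the whole period and 6 in the second interval. Among all genes tested, the libraries of the 2 stages did not overlap for 36.6%, 42.4% and 35.4%. With 3 libraries against 3, an exact two-sided permutation test of a single gene can give no p-value below 0.1.

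**Figure D1:**
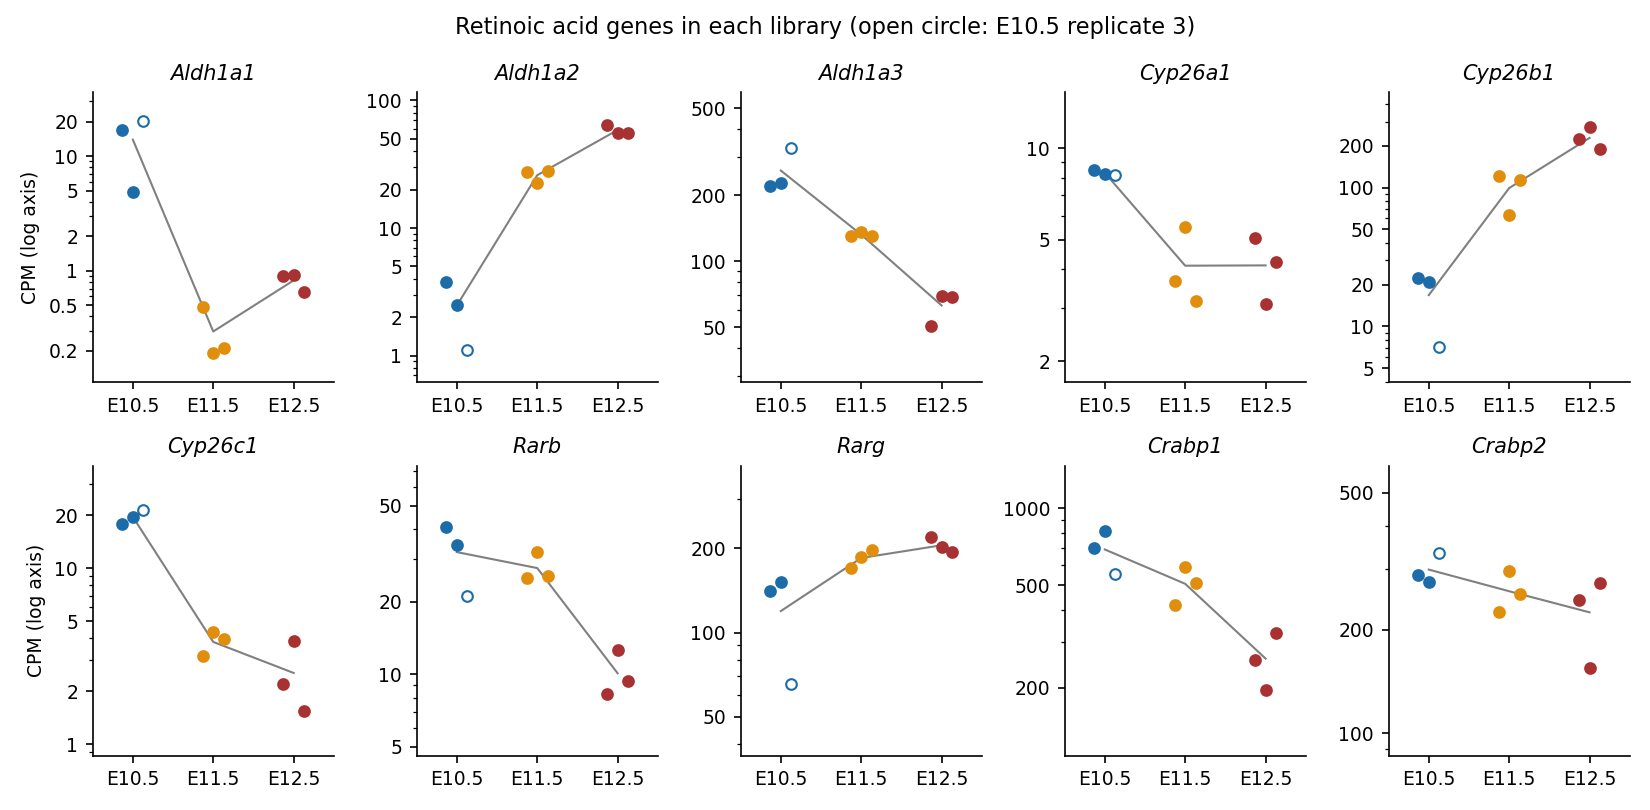
Level of each of the 10 genes in each of the 9 libraries, in CPM on a log axis, with 3 libraries per stage and a grey line through the stage means. Aldh1a2 and Cyp26b1 climbed at each stage, and Aldh1a3 and Rarb ended lower than they began. The open circle, E10.5 replicate 3, was the lowest E10.5 library for Aldh1a2, Cyp26b1, Rarb, Rarg and Crabp1, and narrowly for Cyp26a1.

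All 7 marker lists were found in full, and every marker exceeded 3 counts in at least 1 library. Facial mesenchyme markers summed to 1389–2502 CPM at E10.5, 3701–4054 one day later and 3976–4570 at E12.5, and the other lists are given in the same order of stages. Forebrain and eye markers summed to 240.3–348.5, 73.82–81.94 and 74.03–92.75 CPM, and 8 of the 10 were downregulated DEGs in the first interval, against 2.61% of all genes. Surface epithelium markers summed to 536.8–958.8, 551.0–575.6 and 781.2–854.3 CPM, olfactory placode markers to 454.6–489.9, 395.1–407.6 and 403.4–466.7 CPM, and neuronal markers to 217.6–237.1, 267.0–291.5 and 394.7–468.2 CPM. Endothelial markers summed to 125.8–353.7, 331.0–336.2 and 297.0–354.4 CPM and red blood cell markers to 3533–4733, 5317–5648 and 4438–5727 CPM. In the first interval 3 of 10 olfactory placode markers were also downregulated DEGs. Upregulated there were 3 of 10 facial mesenchyme, 1 of 8 neuronal and 1 of 8 red blood cell markers, against 3.46% of all genes. Surface epithelium markers held 1 DEG in each direction among 10, and endothelial markers none. Over the whole period mesenchyme markers held 4 upregulated and 1 downregulated DEGs, surface epithelium 2 and 1, and olfactory placode 1 and 3. Forebrain and eye markers held 0 and 7, neuronal 2 and 0, red blood cell 2 and 2 and endothelial none. All genes had 9.97% and 5.08%. In the second interval red blood cell markers held 1 and 3 (4.14% and 0.962% of all genes). Surface epithelium held 2 upregulated there, olfactory placode and neurons 1 each, and other lists none.

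The share of Aldh1a2 among the retinaldehyde dehydrogenase transcripts grew at each stage and that of Aldh1a3 shrank. Aldh1a2 rose 23.7-fold from E10.5 to E12.5 while Aldh1a3 fell 4.11-fold and Aldh1a1 fell 16.6-fold. Per kilobase of gene length, Aldh1a3 made up 93.5% ± 2.81 (SD, n = 3) of the summed level of the 3 enzymes at E10.5, then 71.4% ± 2.98 and, at E12.5, 34.3% ± 5.85. Aldh1a2 made up 1.99% ± 1.27, 28.5% ± 2.94 and 65.3% ± 5.82. The ranges of these shares did not overlap between any 2 stages. Which enzyme led at E12.5 depended on the division by gene length (2264 bases for Aldh1a2, 4617 for Aldh1a3). In CPM without it, Aldh1a2 held 48.1% ± 6.58 and Aldh1a3 51.2% ± 6.66 at E12.5, and Aldh1a3 was the higher one in 2 of the 3 libraries. The summed level of the 3 enzymes was 60.1 ± 13.7 CPM per kilobase at E10.5, 40.2 ± 0.562 one day later and 39.7 ± 0.0734 at E12.5. The sums of the last 2 stages overlapped. In these tissue samples, fewer cells of a type and less RNA per cell cannot be told apart.

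Aldh1a2 (ENSMUSG00000013584, GRCm38 chr9:71215789-71296243), whose enzyme makes most RA of the early embryo, stood at 3.80, 2.5 and 1.11 CPM in the E10.5 libraries. It reached 27.3, 22.5 and 28.0 CPM at E11.5 and 64.6, 55.6 and 55.6 CPM at E12.5. Each stage lay wholly above the one before. It rose by 3.39 on the log2 scale in the first interval (SE 0.35, adjusted p = 0.00168) and by 1.17 in the second (SE 0.14, adjusted p = 4.34e-04). Over the whole period the log2 fold change was 4.57 (SE 0.35, adjusted p = 8.78e-06). Without E10.5 replicate 3, the lowest library, that value was 4.23. The rise was smaller in the second interval than in the first by 2.20 on the log2 scale (SE 0.45, adjusted p = 0.0346), where 1.18% of all genes passed this test of the change between intervals. That call was lost without any 1 of E10.5 replicate 2 and the 3 E11.5 and 3 E12.5 libraries.

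Aldh1a3 (ENSMUSG00000015134, chr7:66390890-66427517), an enzyme of the nasal and ocular epithelium in embryos, stood at 221.5, 227.7 and 329.6 CPM at E10.5. It was at 130.5, 136.5 and 129.9 CPM at E11.5 and at 50.4, 69.2 and 68.8 CPM at E12.5. The stages did not overlap. The first step, a log2 fold change of -0.97 (SE 0.16, adjusted p = 0.0093), passed the p-value but missed the fold-change threshold, and the second was a DEG at -1.08 (SE 0.14, adjusted p = 9.42e-04). Over both it fell by 2.04 on the log2 scale (SE 0.22, adjusted p = 8.65e-05), and by 1.83 without E10.5 replicate 3, which had the highest level. The first step became a DEG without E10.5 replicate 1 (-1.07) or replicate 2 (-1.06), and the second was no longer one without E12.5 replicate 1 (-0.94).

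Aldh1a1 (ENSMUSG00000053279, chr19:20492715-20643462), known from the dorsal retina among other sites, fell after E10.5. Its raw counts were 283, 83 and 325 at E10.5, 9, 4 and 4 at E11.5 and 16, 17 and 11 at E12.5. In CPM the E10.5 libraries were at 16.8, 4.82 and 20.1, and all later ones were below 1. Its log2 fold change was -5.54 (SE 0.66, adjusted p = 0.0027) in the first interval, a 46.5-fold fall, and -4.05 (SE 0.51, adjusted p = 2.57e-04) over the whole period. Without E10.5 replicate 3 these were -5.17 and -3.68. From E11.5 to E12.5 its libraries did not overlap, with a log2 fold change of 1.47 (SE 0.48) that did not pass the test (adjusted p = 0.0702). The 2 intervals differed by 7.02 on the log2 scale (SE 1.12, adjusted p = 0.0122), a call that was lost without E11.5 replicate 2 (adjusted p = 0.0639), E11.5 replicate 3 (0.0944) or E12.5 replicate 1 (0.0520). Aldh1a1 followed the order of the forebrain and eye markers among the E10.5 libraries, whose sums were 293.6, 240.3 and 348.5 CPM in replicates 1, 2 and 3. The part of forebrain or eye tissue in its level was not tested.

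**Figure D2:**
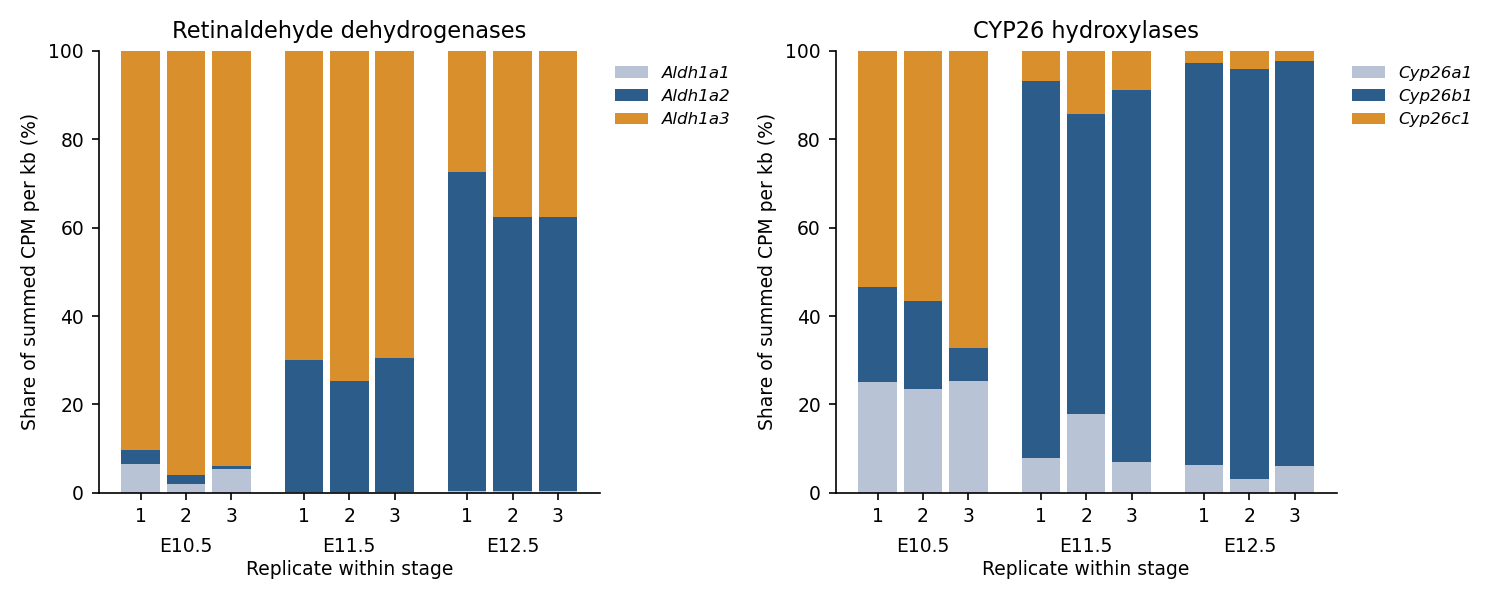
Share of each gene in the summed level of the 3 retinaldehyde dehydrogenase genes (left) and of the 3 CYP26 genes (right), in percent of CPM per kilobase of gene length, with 1 bar per library. On this scale Aldh1a2 held 61.8–72.0% of the left sum at E12.5 and Cyp26b1 67.9–85.3% of the right sum at E11.5, against 44.2–55.7% and 86.5–94.7% without division by gene length.

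Among the RA-degrading enzymes, Cyp26b1 rose 13.7-fold from E10.5 to E12.5 while Cyp26c1 fell 7.62-fold and Cyp26a1 fell 2.0-fold. Cyp26c1 held 59.1% ± 7.29 (SD, n = 3) of the CYP26 sum per kilobase at E10.5, then 10% ± 3.79 and, at E12.5, 3.03% ± 0.915. Cyp26b1 held 16.3% ± 7.81, 79.1% ± 9.73 and 91.8% ± 0.897. In CPM without division by length (5352 bases for Cyp26b1, 1747 for Cyp26c1), Cyp26b1 held 36.1% ± 14.5 and Cyp26c1 45.1% ± 11.6 at E10.5, where Cyp26b1 was the higher one in replicates 1 and 2, and both scales had Cyp26b1 first at the later stages. Cyp26a1 went from 24.6% ± 1.00 to 10.9% ± 6.07 and 5.19% ± 1.75. The CYP26 sum was 19.1 ± 0.826 CPM per kilobase at E10.5, 23.1 ± 4.93 one day later and 46.5 ± 8.09 at E12.5, and the E12.5 range, 38.7–54.8, lay above the earlier libraries.

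Cyp26b1 (ENSMUSG00000063415, chr6:84571414-84593908) is the CYP26 gene best known from limb, craniofacial and skeletal mesenchyme. It was at 22.3, 21.0 and 7.12 CPM at E10.5. It was at 120.8, 63.3 and 114.1 CPM at E11.5, then at 224.2, 272.2 and 189.3 CPM at E12.5. No stage overlapped with another. In log2 terms the change was 2.57 (SE 0.42, adjusted p = 0.0085) in the first interval and 1.20 (SE 0.23, adjusted p = 0.00694) in the second. Over the whole period it was 3.77 (SE 0.37, adjusted p = 4.99e-05), and 3.41 without E10.5 replicate 3. The first call was lost without E11.5 replicate 1 (2.41, adjusted p = 0.0557). The second was lost when E11.5 replicate 2 (0.94) or E12.5 replicate 1 (adjusted p = 0.0511) was left out and in a fit on all 9 libraries (adjusted p = 0.0525). The change between intervals, -1.36, did not pass its test (adjusted p = 0.370).

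Cyp26c1 and Cyp26a1 are neighbours on chromosome 19, read in the same direction and 4409 bases apart. Cyp26c1 (ENSMUSG00000062432, chr19:37685581-37693398) stood at 17.9, 19.6 and 21.4 CPM at E10.5. It was at 3.17, 4.33 and 3.95 CPM at E11.5, then at 2.20, 3.88 and 1.55 CPM at E12.5. All E10.5 libraries lay above all later ones, and the later stages overlapped. Its log2 fold change was -2.35 in the first interval (SE 0.18, adjusted p = 0.0010) and -2.93 over the whole period (SE 0.32, adjusted p = 9.10e-05). In the second interval the value was -0.58 (SE 0.32, adjusted p = 0.248), and without E12.5 replicate 2 it was -1.03 (adjusted p = 0.0186). The change between intervals, 1.78, did not pass its test (adjusted p = 0.124).

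Cyp26a1 (ENSMUSG00000024987, chr19:37697808-37701528), a gene that RA itself induces in many embryonic tissues, was at 8.50, 8.24 and 8.18 CPM at E10.5. It was at 3.66, 5.53 and 3.16 CPM at E11.5 and at 5.07, 3.07 and 4.23 CPM at E12.5. The E10.5 libraries were close together and above all others, and the later stages overlapped. Its log2 fold change was at the threshold in both comparisons with E10.5, -1.01 (SE 0.24, adjusted p = 0.0311) and -1.0 (SE 0.26, adjusted p = 0.0174). It missed the call in 6 of 15 alternatives for each. Among those were the fits without E11.5 replicate 3 (-0.84, adjusted p = 0.140) and without E12.5 replicate 2 (-0.83, adjusted p = 0.0477). In E12.5 vs. E11.5 the log2 fold change was -0.01 (SE 0.27, adjusted p = 0.988).

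**Figure D3:**
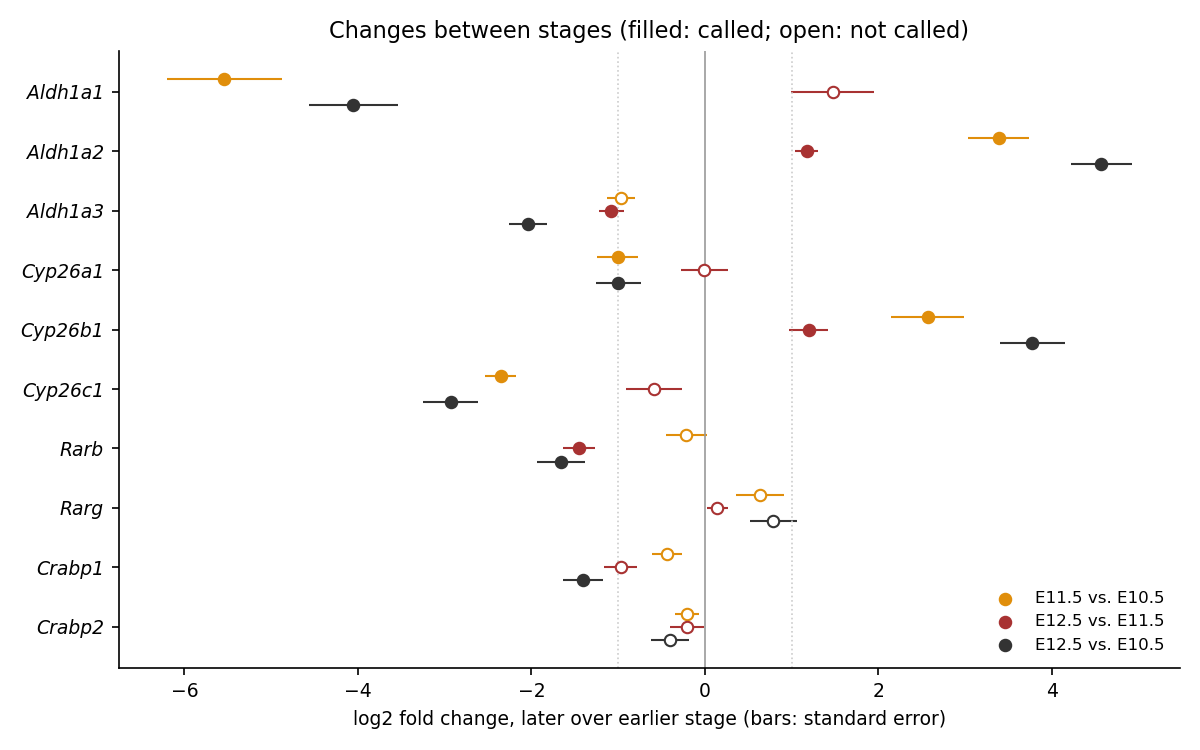
Log2 fold change, later stage over earlier stage, for each of the 10 genes, with bars of 1 standard error, in 3 comparisons of 3 libraries with 3. Filled points passed both DEG thresholds, dotted lines mark the fold-change threshold, and the changes reached from -5.54 for Aldh1a1 to 4.57 for Aldh1a2.

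Of the receptors, Rarb fell 3.16-fold from E10.5 to E12.5, and Rarg was not a DEG in any pair of stages. With Rara counted as well, Rarb made up 13.4% ± 1.61 (SD, n = 3) of the RAR sum per kilobase at E10.5, then 7.93% ± 1.12 and, at E12.5, 2.80% ± 0.709. Rarg made up 59.5% ± 3.23, 65.4% ± 1.40 and 69.6% ± 1.44, and Rara 27.2% ± 1.64, 26.6% ± 1.43 and 27.7% ± 1.69. Neither the Rarb ranges nor the Rarg ranges overlapped between stages, whereas the Rara ranges did.

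Rarb (ENSMUSG00000017491, chr14:16430839-16819156), whose transcription RA induces through its own receptors, was at 40.8, 34.5 and 21.1 CPM at E10.5. It was at 25.0, 32.3 and 25.5 CPM at E11.5 and at 8.28, 12.7 and 9.36 CPM at E12.5. The first 2 stages overlapped and E12.5 lay below both. Rarb gave a log2 fold change of -0.22 (SE 0.23, adjusted p = 0.597) in the first interval, -1.45 (SE 0.19, adjusted p = 7.68e-04) in the second and -1.66 (SE 0.27, adjusted p = 0.00143) over the whole period. The change between intervals, -1.23, did not pass its test (adjusted p = 0.218), so a difference between the intervals was not shown. Without E10.5 replicate 3 the log2 fold change over both intervals was -1.88, and the first interval gave -0.44 (adjusted p = 0.0112).

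Of the Rarb exon bases, 38.4% overlap Top2b and Gm48162 on the opposite strand. The strand setting of the counting is not given in the sources used here, so reads of these genes cannot be told apart there. Top2b, a topoisomerase gene, stood at 494.9 ± 98.8 CPM (SD, n = 3) at E10.5, 547.7 ± 17.3 one day later and 503.9 ± 33.5 at E12.5. Its order among the E10.5 libraries differed from that of Rarb, with 608.9 CPM in replicate 3, where Rarb was lowest. The orders also differed at E11.5. At E12.5 they were the same, with Top2b at 465.4, 526.4 and 520.0 CPM in replicates 1, 2 and 3. The part of Top2b reads in the Rarb counts was not tested.

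Rarg (ENSMUSG00000001288, chr15:102234938-102257517), the RAR of skeletal and facial mesenchyme, was at 141.1, 151.5 and 65.4 CPM at E10.5. It was at 170.0, 186.1 and 197.8 CPM at E11.5, then at 219.4, 201.4 and 194.1 CPM at E12.5. The E10.5 libraries lay below all later ones, and replicate 3 had less than 0.5 times the level of either other E10.5 library. Rarg gave a log2 fold change of 0.63 in the first interval (SE 0.28, adjusted p = 0.180) and of 0.79 over the whole period (SE 0.27, adjusted p = 0.0562). Without replicate 3 these were 0.34 (adjusted p = 0.0037) and 0.50 (adjusted p = 0.0321), below the fold-change threshold. The test over 3 stages passed in 6 alternatives, among them DESeq2 (adjusted p = 0.0251) and the fit without E10.5 replicate 3 (adjusted p = 0.0177).

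The carriers had the highest levels among the 10 genes per kilobase at all 3 stages. Crabp1 was first and Crabp2 second, at 860.1 ± 161.6 and 226.1 ± 23.2 CPM per kilobase (SD, n = 3) at E10.5 and 323.7 ± 81.5 and 169.8 ± 47.0 at E12.5. Crabp1 held 78.8% ± 4.98 of the CRABP sum at E10.5, then 76.3% ± 0.773 and, at E12.5, 65.7% ± 2.16. Crabp1 fell 2.64-fold from E10.5 to E12.5, and no difference in Crabp2 passed the test.

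Crabp1 (ENSMUSG00000032291, chr9:54764748-54773110), a cytoplasmic RA-binding protein typical of neural crest and its facial mesenchyme, was at 701.6, 813.2 and 554.7 CPM at E10.5. It was at 420.1, 591.5 and 510.0 CPM at E11.5 and at 256.6, 195.8 and 326.4 CPM at E12.5. The E12.5 libraries lay below all others, and the first 2 stages overlapped. The log2 fold change was -0.44 (SE 0.17, adjusted p = 0.146), then -0.97 (SE 0.19, adjusted p = 0.00883), and -1.40 over both (SE 0.23, adjusted p = 0.00142). The second step missed the fold-change threshold and passed it in 4 of 15 alternatives, with values of -1.09 to -1.18.

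Crabp2 (ENSMUSG00000004885, chr3:87948666-87953376), which hands RA to RAR receptors in the nucleus, was at 288.6, 274.7 and 333.3 CPM at E10.5. It was at 225.7, 296.5 and 253.5 CPM at E11.5, then at 244.6, 154.8 and 274.1 CPM at E12.5. Neighbouring stages overlapped, the lowest E10.5 and the highest E12.5 library were level with each other, and E12.5 replicate 2 had the lowest of the 9 levels. Over the whole period the log2 fold change was -0.40 (SE 0.22, adjusted p = 0.212).

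The order of levels below the carriers changed between stages. Per kilobase at E10.5, Aldh1a3 (56.2 ± 13.1) and then Rarg (28.0 ± 11) followed them, with Aldh1a2 last at 1.09 ± 0.594 CPM per kilobase. The neighbours in that order whose libraries overlapped were Rarb with Cyp26a1, Cyp26b1 with Aldh1a1, and Aldh1a1 with Aldh1a2. At E11.5 Rarg came next after the carriers at 43.3 ± 3.27, before Aldh1a3 at 28.7 ± 0.786, and the overlapping neighbours were Cyp26b1 with Aldh1a2 and Cyp26a1 with Cyp26c1. At E12.5 Rarg (48.1 ± 3.06) and Cyp26b1 (42.7 ± 7.77) overlapped in the places after the carriers, followed by Aldh1a2 at 25.9 ± 2.31 and Aldh1a3 at 13.6 ± 2.32. Cyp26a1, Rarb and Cyp26c1 followed as overlapping neighbours, and Aldh1a1 was last at 0.167 ± 0.0297.

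The genes upstream of RA synthesis held at most 1 DEG in a comparison. Of 19 genes for retinol supply and retinaldehyde formation, 18 were found. For the first interval 10 were tested, and 9 each for the whole period and the second interval. No gene was a DEG in the first interval with edgeR or with DESeq2, and 3 had an unadjusted p-value under 0.05 with each. Rdh14, a retinal reductase, was the only DEG over the whole period, at 7.69 ± 1.82, 11.6 ± 1.02 and 18.3 ± 1.93 CPM over the stages (log2 fold change 1.26, SE 0.24, adjusted p = 0.0031). Stra6, the membrane receptor that takes up retinol from its plasma carrier, was the only DEG of the second interval. It was at 81.9 ± 25.9, 107.8 ± 5.22 and 45.1 ± 11.2 CPM, with a log2 fold change of -1.26 there (SE 0.17, adjusted p = 0.0012). Among all genes tested, 3.46% were upregulated and 2.61% downregulated in the first interval, and 9.97% and 5.08% over the whole period. The list's 0 of 10 and 1 of 9 genes are near these shares. In the second interval the shares were 4.14% and 0.962%, and 1 downregulated gene of 9 is above the latter but is a single gene. The list's median was 0.16 in the first interval, 0.04 over the whole period and 0.10 in the second interval, beside -0.03, -0.01 and 0.02 for all genes. DESeq2, which tested more low genes, also called Adh7 and Ttr upregulated in both comparisons with E12.5, and they are named after their values were seen. Ttr was at 0 to 46.9 CPM among the E12.5 libraries. With 1 library left out edgeR called 1–4 genes over the whole period (4 without E10.5 replicate 3, with Adh7, Ttr and Stra6 added) and 1–3 in the second interval (3 without E11.5 replicate 1, with Adh7 and Ttr added).

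Rdh10, the main retinol dehydrogenase of the embryo, was at 36.4 ± 5.60, 30.4 ± 0.944 and 37.1 ± 4.40 CPM, with log2 fold changes of -0.26 and 0.28 in the successive intervals (adjusted p = 0.269 and 0.184). Dhrs3, which reduces retinaldehyde back to retinol, was at 14.8 ± 4.65, 24.3 ± 2.80 and 20.2 ± 4.59 CPM. It gave 0.72 in the first interval (adjusted p = 0.0907). Rbp4, the plasma carrier, reached at most 1.32 CPM, and was tested for the first interval alone (0.50, adjusted p = 0.50).

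**Figure D4:**
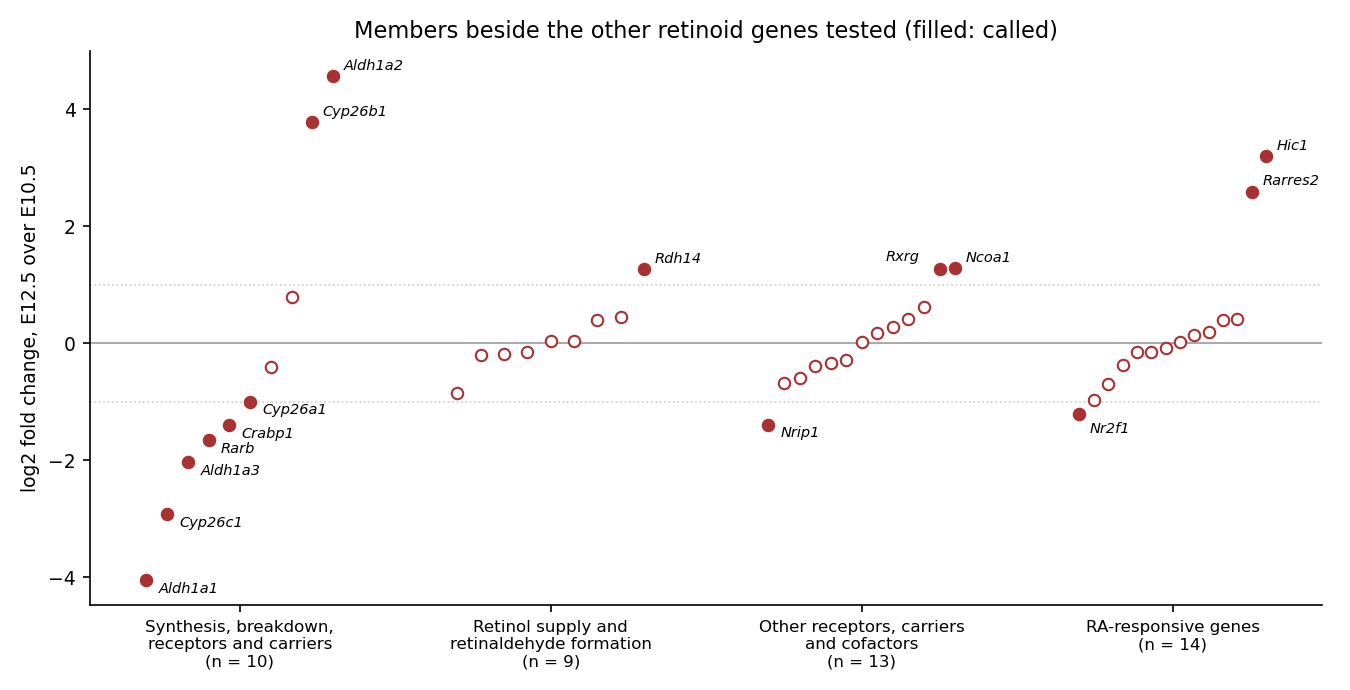
Log2 fold change in E12.5 vs. E10.5 of the 10 genes beside the other retinoid genes tested, grouped by list, with filled and named points for DEGs and dotted lines at the fold-change threshold. Cdx1, at 0 in all E12.5 libraries, is not drawn. Of the 10 members, 8 were DEGs, as were 1 of 9, 3 of 13 and 4 of 15 tested in the lists when Cdx1 is counted, while 9.97% of all genes were upregulated and 5.08% downregulated.

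Among 14 other receptors, carriers and cofactors, 13 were tested in each comparison. The first interval had 1 DEG (upregulated, against 3.46% of all genes), the whole period 3 (2 upregulated and 1 downregulated, against 9.97% and 5.08%) and the second interval 0 (against 4.14% and 0.962%). With 13 genes these counts are near the shares of all genes. Ncoa1, a receptor coactivator, rose from 14.9 ± 2.45 to 31.0 ± 6.93 and 36.1 ± 10.2 CPM (log2 fold change 1.28 over the whole period, SE 0.24, adjusted p = 0.0035). Nrip1, a corepressor that RA induces, fell from 128.5 ± 9.54 to 82.2 ± 3.40 and 48.7 ± 17.1 CPM (-1.39, SE 0.24, adjusted p = 0.0018). Rxrg was low and rose from 1.13 ± 0.483 to 2.69 ± 0.0515 CPM (1.27, SE 0.38, adjusted p = 0.0313). In the second interval DESeq2 also called none, and 4 genes had an unadjusted p-value under 0.05 with either tool. The first-interval call of Ncoa1 was lost without E10.5 replicate 3, E11.5 replicate 1 or E11.5 replicate 3, and the whole-period call of Rxrg was lost when any 1 library other than E10.5 replicate 3 was left out.

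Rara was at 54.9 ± 18.9, 76.8 ± 2.32 and 83.8 ± 12 CPM, with 0.62 over the whole period (adjusted p = 0.0998). Rxra was at 113.5 ± 19.3, 145.2 ± 7.28 and 136.3 ± 25.5 CPM, and Rxrb at 70.3 ± 12.3, 69.0 ± 4.12 and 70.7 ± 6.54 CPM. Neither passed the test in any pair of stages. The list's medians were -0.05, 0.02 and -0.08.

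Of 21 genes known to respond to RA in embryos, 14, 15 and 14 were tested in the first interval, the whole period and the second interval. They held 3 downregulated DEGs (2.61% of all genes), then 2 upregulated and 2 downregulated (9.97% and 5.08%), then 2 upregulated (4.14%). The medians were -0.09, -0.08 (also with Cdx1 at the bound given below) and 0.03. Cdx1 had at most 23, 7 and 0 counts per library over the stages, and Rarres2 at most 7, 7 and 47. Both passed the count filter only through the stage where they were high, so their calls add nothing to the comparison with all genes. With 10 or more counts required in each library, Nr2f1 alone was called over the whole period. Hic1, a transcriptional repressor of mesenchyme, rose from 2.25 ± 2.05 to 8.95 ± 1.14 and 20.6 ± 5.59 CPM (log2 fold change 3.20 over the whole period, SE 0.57, adjusted p = 0.0024). Cdx1, a homeobox gene of the posterior embryo, was low at E10.5 (1.09 ± 0.225 CPM) and had no count in the 3 E12.5 libraries. It was thus at least 6.43-fold lower at E12.5, computed against 3 counts per library. Rarres2, which encodes the chemokine chemerin, went from 0.238 ± 0.156 to 1.46 ± 0.987 CPM (2.59, SE 0.66, adjusted p = 0.0159), and 33.6% of its exon bases overlap Lrrc61 on the opposite strand. Nr2f1, also called in the first interval, was named after its values were seen. Nr2f1 fell from 154.0 ± 24.0 to 76.5 ± 10.7 CPM. With 1 library left out the list held 1–4 DEGs in the first interval, lowest when E11.5 replicate 1 or E10.5 replicate 2 was the one left out, 4–6 over the whole period, where Hic1, Cdx1 and Nr2f1 were called each time, and 0–3 in the second interval, lowest without E12.5 replicate 1.

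The genes that share the 5-base-spaced repeat with Rarb and Cyp26a1 are described by their counts. Of the 28 genes with such a promoter, 17 were matched by symbol and 8 or 9 were tested in each comparison. Beside Cyp26a1 and Rarb, the DEGs were Ppbp and Prokr2, both upregulated in the first interval and over the whole period, and none was downregulated. With Cyp26a1 and Rarb counted, 2 of 9 were upregulated and 1 downregulated in the first interval, against 3.46% and 2.61% of all genes. Over the whole period there were 2 and 2 of 8 (9.97% and 5.08%). In the second interval there were 0 and 1 of 9 (4.14% and 0.962%). Over the tested genes the median log2 fold change was 0.22 in the first interval, 0.54 over the whole period and -0.05 in the second interval. For all genes it was -0.03, -0.01 and 0.02. This group was chosen after values were seen and is a description.

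The genes whose log2 CPM followed a member most closely over the 9 libraries were sought for Aldh1a2, Aldh1a1 and Cyp26b1 among 9811 genes. For Aldh1a2 these were Tspan11, Olfml3 and Col6a1 (Pearson's r = 0.995 each), and for Cyp26b1 Bgn (0.995), Col6a2 (0.994) and Wipf1 (0.993). Col6a1 went from 6.34 ± 3.54 to 56.4 ± 12.3 and 157.0 ± 39.1 CPM, and Bgn, a proteoglycan of the matrix, from 21.6 ± 6.72 to 66.2 ± 11.4 and 122.6 ± 19.8 CPM. For Aldh1a1 they were Lhx2 (0.973), a transcription factor of the eye and forebrain marker list, Ckb (0.963) and Nrcam (0.953). Lhx2 was at 69.5 ± 6.73, 29.6 ± 1.13 and 37.3 ± 3.70 CPM. These correlations are descriptions over libraries that share stages, depth and GC trend.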

How the data were processed

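RNA-seq of lambdoidal junction tissue at 3 embryonic stages (3 libraries each, from pooled embryos) was analysed from the table the authors deposited. The authors mapped reads to GRCm38/mm10 with HISAT2 2.0.5, and featureCounts gave the number of reads per gene. Its count columns hold the deposited whole-number read counts, without normalization. FPKM values and the authors' own fold changes and p-values, also in the table, were not used. The gene length column, as deposited by the authors, served for levels per kilobase. How reads were assigned by strand is not given in the sources used here. A count of depth 16581009–20836804 per library carries counting error, and reads were PCR-amplified without molecular identifiers.

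The 6 libraries of each pair of stages were fitted separately with filterByExpr, TMM normalization and edgeR 4.0.16's quasi-likelihood test (R 4.3.3), and p-values were adjusted over all genes tested. A standard error is the size of the log2 fold change over the root of its F statistic. All 9 libraries were fitted for the test over 3 stages and for the change between intervals, (E12.5 minus E11.5) minus (E11.5 minus E10.5). CPM used TMM-scaled library sizes of all 9 libraries, and correlations used log2 CPM (prior count 2). The procedure was tested on simulated data. GC content, exon overlaps and gene models came from GENCODE vM21, promoters from RefSeq on GRCm38.p6.

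The members and lists were chosen with earlier results of these data known. All members were named, as were Rara, Rxra, Rxrb, Rxrg, Rdh10, Dhrs3, Rbp4 and Stra6, and at most 3 further DEGs per list, those with the largest change in E12.5 vs. E10.5. For 3 members the 3 genes with the nearest pattern were named. A gene that the rule names is not reported here. Alternatives were DESeq2 1.42.0 and its size factors, upper quartile normalization, other filters on low counts, a fit on 9 libraries, the replicate number as a block, removal of the GC trend (lowess, span 0.3), glmTreat, no fold-change threshold, no division by gene length, and each library left out in turn. The replicate numbers of the titles are not stated to mark shared batches.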

Additional observations from a re-analysis of the deposited data

How the results depend on the processing

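Over 766 alternative fits of single members' fold changes, 706 kept direction and call, 28 lost the call, 17 gained it and 15 turned direction. This tally leaves out glmTreat and the setting with no fold-change threshold. The 706 include fits of members that were called neither there nor in the main fit. The number of members called moved by over 1.5 times in these cases. With glmTreat against the fold-change threshold it was 3 in the first interval, 5 over the whole period and 0 in the second interval, where Aldh1a2 and Rarb had an unadjusted p-value under 0.05 (2 genes), while DESeq2 called 4. With each library left out it was 3–5 in the first interval (3 without E11.5 replicate 1), 2–5 in the second interval (2 without E12.5 replicate 1) and 0–2 for the change between intervals. For the change between intervals it was 0 without E11.5 replicate 2, E11.5 replicate 3 or E12.5 replicate 1, where 5, 4 and 4 members had an unadjusted p-value under 0.05. It was 1 without E10.5 replicate 2, E11.5 replicate 1, E12.5 replicate 2 or E12.5 replicate 3. With all genes of at least 1 count it was 5, and with 10 or more counts in each library 0, a filter that leaves Aldh1a1 out and with which 5 had an unadjusted p-value under 0.05 (DESeq2 called 3). The other tool and filter settings left the members' DEG counts of the pairs within 1.5 times. The list counts moved further. With glmTreat none of the supply genes and none of the receptors, carriers and cofactors was called in any pair, so the calls of Rdh14, Stra6, Ncoa1, Nrip1 and Rxrg ended. Rdh14, Ncoa1 and Nrip1 kept an unadjusted p-value under 0.05 over the whole period and Stra6 in the second interval. The RA-responsive genes had 0, 2 and 0 calls with glmTreat in the first interval, the whole period and the second interval (3, 4 and 1 at an unadjusted p-value under 0.05), against 3, 4 and 2. With all genes of at least 1 count, 4 supply genes were called over the whole period and 3 in the second interval, against 1 each, and 3 each with DESeq2. With 10 or more counts in each library, 1 RA-responsive gene was called over the whole period and 1 in the second interval, and removing the GC trend left 1 in the second interval. Without a fold-change threshold the supply genes had 1, 2 and 2 calls, the receptors, carriers and cofactors 2 in each of the first and second intervals, and the RA-responsive genes 5 in the first interval.

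Directions that turned were near 0. Cyp26a1 in the second interval was 0.052 with upper quartile normalization and ranged from -0.18 to 0.25 with a library left out. Rarg in the second interval was -0.0075 with the GC trend removed and -0.0073 with the replicate block added. For the change between intervals, Aldh1a3 ranged from -0.36 to 0.040 with a library left out, and Crabp2 from -0.17 to 0.23, with -0.0043 by DESeq2 and -0.029 with all genes of at least 1 count. The cause was not tested. Same-numbered libraries correlated at -0.151 to 0.22 in their deviations from the stage means, and the numbers were not taken to pair the samples. With the replicate block, 5, 8 and 4 members were called in the pairs of stages, 9 over the 3 stages (Rarg added) and 2 for the change between intervals, while Cyp26a1 in the second interval was 0.0064 and the interval change of Crabp2 -0.038.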
